A study of Macaca nemestrina with 58 samples.

Results

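The vaginal mucosa of 3 pig-tailed macaques (Macaca nemestrina) given the lowest labelled dose of DMPA, 0.5, was compared with untreated biopsies of the same animals. DMPA is depot medroxyprogesterone acetate, an injectable progestin contraceptive. The members were the treated arrays labelled DMPA at dose 0.5, together with the baseline arrays of their animals, 11 of the 58 arrays in the series. Animals PPi2 and BB770 each had a biopsy at the time labelled 1D4 and another at 2D2, and BB108 had one at 2D2, which gave 5 treated arrays. Their 6 untreated baseline arrays carry a cycle phase in the labels: PPi2 and BB108 in the late luteal and early follicular phases, BB770 in the late luteal and late follicular phases. The comparison between doses used 3 animals given dose 1.5 and 3 given dose 2.5, each with its own baseline. The other 6 animals were given the treatment labelled LNG; their arrays entered the model only for its estimate of spread, and their baselines are among the 22 baseline samples of other animals quoted below. No unit of dose, age of animal or length of the times is labelled. No animal was biopsied untreated at the later times, so the drug cannot be told apart from elapsed time and repeated sampling.

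The vagina is lined by a stratified squamous epithelium whose growth and maturation depend on estrogen. Its upper layers make the proteins of the cornified envelope, a cross-linked shell under the cell membrane, together with proteases of the kallikrein and TMPRSS11 families and the inhibitors that hold them in check. Progestin-only contraception suppresses the ovarian cycle and with it the cyclic estrogen supply, and thinning of this epithelium after DMPA is a known effect in macaques. Secretory and columnar epithelia, by contrast, are marked by simple-epithelium keratins, mucins and the immunoglobulin transporter PIGR.

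Values are deposited log2 expression values of single probe sets on a rhesus macaque array, and changes are log2 differences from the animal's own baseline. A probe set passed at a limma adjusted p under 0.05 over the 31624 probe sets tested, and 11199 named genes were each read at their brightest probe set. Array medians lay between 6.07 and 6.25. Precision is limited by the small number of arrays. The standard error of the change at both times had a median of 0.18 for all probe sets, and of 0.61 for the 65 genes of the squamous lists (cornified envelope, epithelial proteases, protease inhibitors and suprabasal squamous genes). These biopsies hold several tissues, so fewer cells of a type and less RNA per cell cannot be told apart in any value below.

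One array was the most extreme of the baseline samples on 2 measures, though the outlier comparisons given at the end did not flag it. In the late luteal baseline array of PPi2 the mean of the 65 squamous genes was 8.61, the lowest of the 28 baseline samples of the series, whose median was 11.7. The same array had the highest 3' minus 5' difference of the GAPDH control probe sets, a measure of RNA degradation, at 2.67 against a baseline median of 1.58. Low squamous means also occurred in the late luteal baseline of BB967 (9.24), an animal of the LNG arm, and in the early follicular baseline of BB108 (9.76). The squamous mean in the early follicular baseline of PPi2 was 11.90, so the squamous level of this animal's baseline rests on which array is used. The late luteal array of PPi2 correlated with the animal's own treated 2D2 array at r = 0.965 and with its own early follicular array at r = 0.885, both across probe sets, which are not independent. The 2D2 array of PPi2 was as close to the late luteal baseline of another animal, BB108 (r = 0.966). The counts and medians of the squamous lists are therefore given with and without the late luteal array of PPi2. They were not counted without other single arrays. The GAPDH difference of the 11 arrays was 1.76 ± 0.49 (SD, n = 6) at baseline and 1.85 ± 0.55 (SD, n = 5) after treatment, a mean change of 0.138 per animal (higher in 2 of 3 animals; exact two-sided permutation p = 0.537, adjusted p = 0.824 over the 2 control transcripts). The corresponding change for actin was 0.02 (exact permutation p = 0.824, adjusted p = 0.824). The smallest p that the 108 labellings within animals can give is 0.00926.

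**Figure D1:**
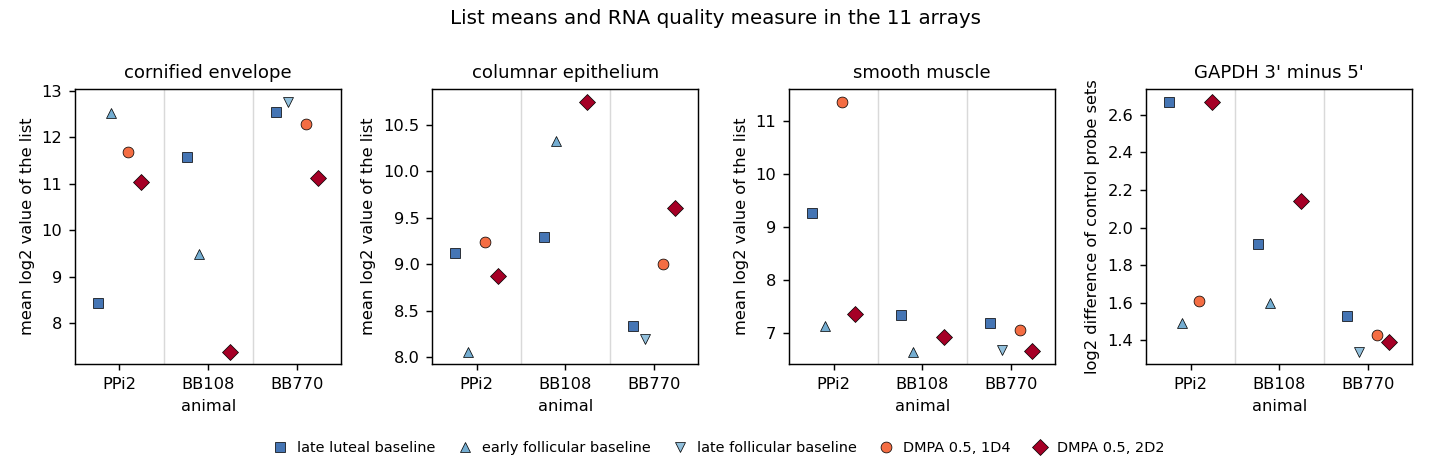
Mean log2 value of 3 gene lists and the log2 3' minus 5' difference of the GAPDH control probe sets (vertical axes) in each of the 11 arrays, grouped by animal (horizontal axis); each point is 1 array. The late luteal baseline of PPi2 is low for the cornified envelope (8.44) and shares the highest GAPDH difference with the 2D2 array of the same animal (2.67).

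The first question was whether the lowest dose moved the mucosa away from the animal's own baseline. With both treated times combined, no probe set passed (0 of 31624, 0%), while 1019 (3.22%) had an unadjusted p under 0.05. At 2D2 alone 0 passed and 1081 (3.42%) had an unadjusted p under 0.05. At 1D4, where 2 animals had a biopsy, 0 passed and 948 (3%) had an unadjusted p under 0.05. Without the late luteal array of PPi2 the comparisons still gave 0 passing probe sets, while 2157 (6.82%) had an unadjusted p under 0.05 with both times combined, 2269 (7.17%) at 2D2 and 1051 (3.32%) at 1D4. The direction and size of single genes are therefore given below as measured values, none of which passed against the baseline.

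Of the 11199 genes, 1925 (17.2%) were higher than the own baseline in 3 of 3 animals and 1291 (11.5%) were lower in 3 of 3. Only 8 genes (0.0714%) were at least 2-fold higher in each of the 3 animals: MYBPC1, VNN1, VNN2, FCGBP, MSMB, WFDC2, PRR15L and IGFBP3. No gene (0%) was at least 2-fold lower in each of them.

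MYBPC1, a myosin-binding protein gene, had the largest positive change of the named genes, 3.71 ± 1.07 (SE) or 13.1-fold. In BB770 it stood at 3.42 in the late luteal and 3.57 in the late follicular baseline, and at 8.54 at 1D4 and 9.65 at 2D2. In PPi2 it stood at 3.63 in the early follicular baseline but already at 7.72 in the late luteal one, against 8.10 and 9.65 after treatment. In BB108 both baselines were high, at 10.64 in the early follicular and 8.49 in the late luteal phase, and the 2D2 array had 11.19. The treated arrays thus overlapped the baseline arrays through BB108, and the difference did not pass (limma adjusted p = 1, unadjusted p = 0.0013). The 22 baseline samples of the other 12 animals spanned 2.86 to 11.08, with a median of 4.99, so high values before treatment were not confined to these animals.

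The vanin genes VNN1 and VNN2, which encode pantetheinases, had the same layout. VNN2 stood at 4.10 and 3.31 in the baselines of BB770 and at 7.65 and 8.01 after treatment. In PPi2 it rested at 3.47 in the early follicular array and 9.25 in the late luteal array, against 9.15 and 8.91 after treatment, so against the late luteal array there was no gain. BB108 had 11.16 and 8.96 at baseline and 11.57 at 2D2. Its change over the 3 animals was 2.92 ± 1.06 (SE), and that of VNN1 was 2.20 ± 0.81.

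Among the secretory genes, FCGBP, an IgG Fc-binding mucus protein gene, was higher by 1.87 ± 0.84 and PIGR, which carries immunoglobulin across epithelia, by 1.76 ± 0.69. PIGR stood at 5.36 and 5.50 at baseline in BB770 and at 7.50 and 7.39 after treatment; in BB108 it stood at 9.31 and 7.08 at baseline and 10.85 at 2D2. In PPi2 the baselines were 7.90 (late luteal) and 6.05 (early follicular), and the treated arrays had 7.96 and 7.78. The antiprotease gene WFDC2 was higher by 1.20 ± 0.57, and MSMB, which encodes a secreted microseminoprotein, by 2.19 ± 1.20. Of the 15 measured columnar epithelium genes, 9 were higher in 3 of 3 animals and 0 lower in 3 of 3, against 17.2% and 11.5% of all genes. Their median change was 0.56, against 0.02 over all genes, and 3 of them had an unadjusted p under 0.05 in the higher direction, as did 1.57% of all genes. With the late luteal array of PPi2 left out the count higher in 3 of 3 was again 9 of 15, where 19.4% of all genes were, and the median was 0.78.

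**Figure D2:**
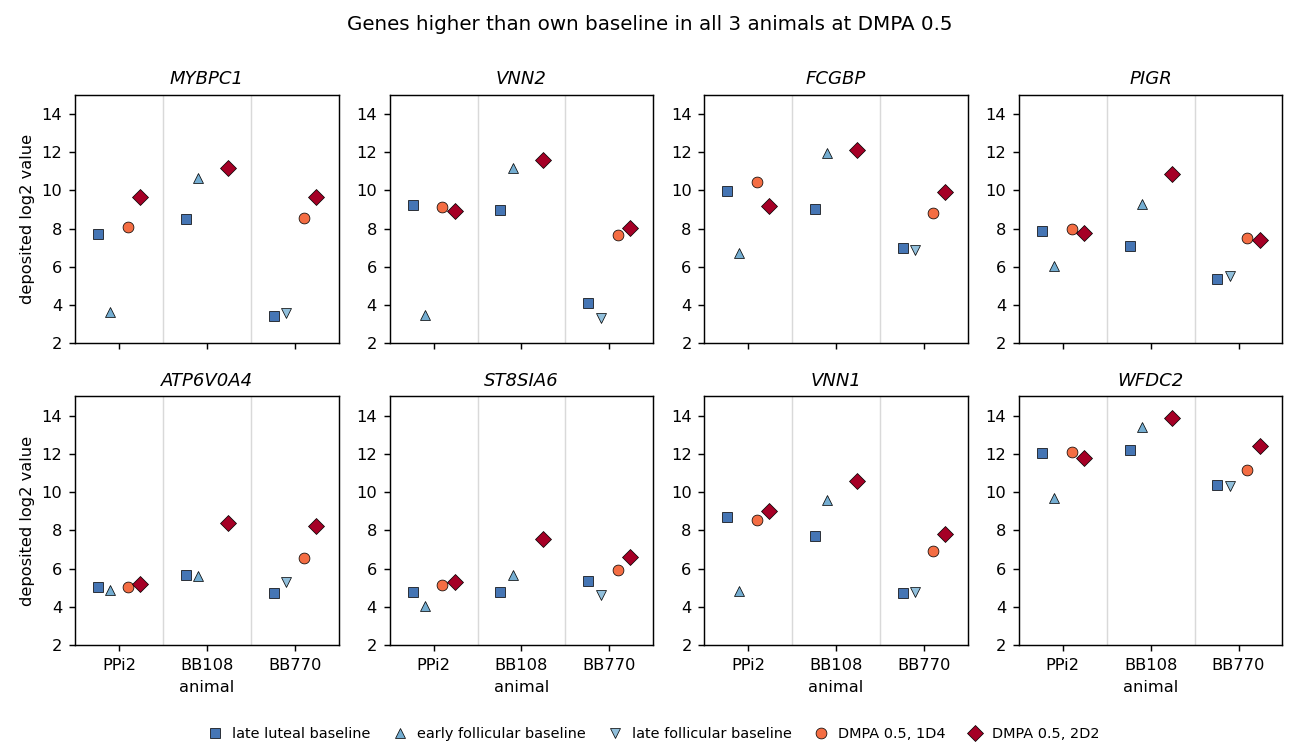
Deposited log2 values (vertical axis) of 8 genes that were higher than the own baseline in all 3 animals, in each of the 11 arrays by animal (horizontal axis); each point is 1 array, with baseline phases in blue and treated times in red and orange. In BB770 every treated value of MYBPC1 and VNN2 is above both baselines, while in BB108 both baselines of MYBPC1 are already at 8.49 or above.

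The 9 genes with the largest rises in the DMPA arm as a whole were each higher in 3 of 3 animals of the lowest dose, where 17.2% of all genes were. Their median change was 1.66, and 5 of the 9 had an unadjusted p under 0.05 in the higher direction, as did 1.57% of all genes. These genes were chosen on data that include these animals, so their direction is not independent evidence. ATP6V0A4, which encodes a proton pump subunit, moved little in PPi2, where the baselines were 5.03 and 4.90 and the treated arrays 5.05 and 5.19. It stood at 5.63 and 5.69 at baseline in BB108 and 8.37 at 2D2. In BB770 it went from 4.75 and 5.28 to 6.58 at 1D4 and 8.23 at 2D2, and over the 3 animals the change was 1.63 ± 0.62. The urea transporter gene SLC14A1 had 0.77 ± 0.59 and the peptide transporter gene SLC15A2 1.29 ± 0.71. The sialyltransferase gene ST8SIA6, not on that list, was higher by 1.36 ± 0.45.

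The genes higher in all animals with the smallest p otherwise changed by small amounts. PARP1, a DNA repair enzyme gene, was higher by 0.46 ± 0.13 (unadjusted p = 0.000785, limma adjusted p = 1) and MARS2, the mitochondrial methionine tRNA synthetase gene, by 0.45 ± 0.13; a second probe set of MARS2 had 0.18. GALNT14, which starts O-linked glycans, was higher by 0.93 ± 0.32. NPAS1, METTL25, EFR3A, FLNC and BAIAP2L2 were higher by 0.26 to 0.58, and a second probe set of NPAS1 had -0.03.

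In 7 genes (0.0625%) all 5 treated arrays lay above all 6 baseline arrays: CCNJ, DCBLD2, LOC696878, MON2, PHKB, RNF128 and SH3D19. Of these RNF128, a ubiquitin ligase gene, had the largest change, 1.21 ± 0.59, with baseline values no higher than 7.97 and treated values of 8.19 to 9.17. PHKB, a regulatory subunit of the kinase that starts glycogen breakdown, had 0.34 ± 0.18. In 4 genes (0.0357%) all treated arrays lay below all baseline arrays: LOC714059, LRRC4C, SRSF5 and TRABD, with changes between -0.35 and -0.20. In the set of these 11 genes no limma adjusted p was below 1.

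Among genes lower in all 3 animals, those with the smallest p were few in kind and modest in size. ICOSLG, a costimulatory ligand gene, had -0.47 ± 0.12 (unadjusted p = 0.000521, limma adjusted p = 1), and its second probe set -0.39. It stood at 8.04 and 8.02 at baseline in BB770 and at 7.37 and 7.29 after treatment, while in PPi2 the baselines of 7.40 and 7.70 bracketed the 1D4 value of 7.55. DLX5, a homeobox gene, had -0.84 ± 0.23, ANOS1, which encodes the matrix protein anosmin, -0.53 ± 0.15, and the interferon gene IFNK, made by keratinocytes, -1.60 ± 0.58. AMPD3, an AMP deaminase gene, had -1.30 ± 0.47, mostly through BB770, where it went from 9.91 and 9.90 to 7.56 and 6.59. FRMD5, TRADD, OR1K1, CFAP119 and HSF4 had changes of -0.43 to -0.28, and a second probe set of HSF4 had 0.01.

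Genes of the mature squamous epithelium did not move in one direction across the 3 animals. The mean change of the cornified envelope genes was 0.88 in PPi2, -3.15 in BB108 and -0.95 in BB770. Of the 15 measured genes of this list 2 were lower in 3 of 3 animals and 0 were higher in 3 of 3, against 11.5% and 17.2% of all genes. Their median change was -0.66, with 0 passing. When the late luteal array of PPi2 was left out, the mean change of that animal became -1.16, 13 of the 15 genes were lower in 3 of 3 animals (13.9% of all genes were), and the median became -1.62, with still 0 passing. The epithelial proteases went from 1 to 10 of 18 genes lower in 3 of 3 animals when that array was left out, the protease inhibitors from 0 to 11 of 14 and the suprabasal squamous genes from 0 to 11 of 18. That array was singled out by the low mean of these same genes, so leaving it out had to lower their mean change in PPi2. The shift in these counts is therefore not separate evidence of a fall.

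LORICRIN, the main structural protein of the cornified envelope, showed how far single biopsies differed. It was 13.44 in the early follicular baseline of PPi2 and 3.71 in its late luteal baseline, against 12.54 and 12.73 after treatment. In BB108 it was 12.80 in the late luteal and 3.50 in the early follicular baseline, and 3.37 at 2D2. In BB770 it was 13.51 and 13.47 at baseline, 12.69 at 1D4 and 7.58 at 2D2. Near-absent LORICRIN thus occurred in untreated and treated arrays alike, and the change of -0.93 ± 1.59 was smaller than its error. It was -3.04 ± 1.43 without the late luteal array of PPi2.

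CRNN, which encodes cornulin of the upper layers, kept close to baseline in PPi2 and BB770. In PPi2 it was 9.93 and 13.43 at baseline and 13.07 and 12.55 after treatment, and in BB770 13.26 and 13.39 at baseline and 13.40 and 12.98 after treatment. In BB108 it went from 10.87 and 12.60 to 4.85. The squamous serine protease gene TMPRSS11B had the same layout: in BB770 12.89 and 12.93 at baseline and 12.85 and 12.10 after treatment, in PPi2 8.60 and 12.92 at baseline and 12.19 and 12.04 after treatment, and in BB108 10.88 and 12.88 at baseline and 3.20 at 2D2. Involucrin (IVL) in BB108 went from 10.12 and 10.89 to 4.96, while in BB770 it was 12.66 and 13.07 at baseline and 12.49 and 12.60 after treatment. The single treated array of BB108 was thus low for each of these genes. In BB770 any falls in them were smaller, the largest in TMPRSS11B at 2D2. For CRNN and TMPRSS11B the treated arrays of PPi2 lay between its 2 baselines. Other squamous genes fell further in BB770, where the mean change at 2D2 was -1.53 for the cornified envelope list and -1.55 for the protease inhibitors.

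SPINK6, an inhibitor of kallikreins, was lower in BB770 as early as 1D4. It went from 13.27 and 13.31 at baseline to 5.13 at 1D4 and 5.43 at 2D2. In PPi2 it was 4.03 and 9.20 at baseline and 5.45 and 8.85 after treatment, and in BB108 4.31 and 12.66 at baseline and 3.95 at 2D2. Its change over the 3 animals was -3.94 ± 1.48 (limma adjusted p = 1), or -5.31 ± 1.48 without the late luteal array of PPi2. Corneodesmosin (CDSN), which glues cells of the outermost layer, had -2.17 ± 1.06, and the cross-linking enzyme gene TGM3 -1.56 ± 0.79. Another 8 genes, those with the largest falls in the DMPA arm, were also chosen on data that include these animals. With all arrays 0 of the 8 were lower in 3 of 3 animals, where 11.5% of all genes were. Without the late luteal array of PPi2 8 were, against 13.9% of all genes. That array was singled out by its low squamous values, so this shift is not separate evidence either.

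**Figure D3:**
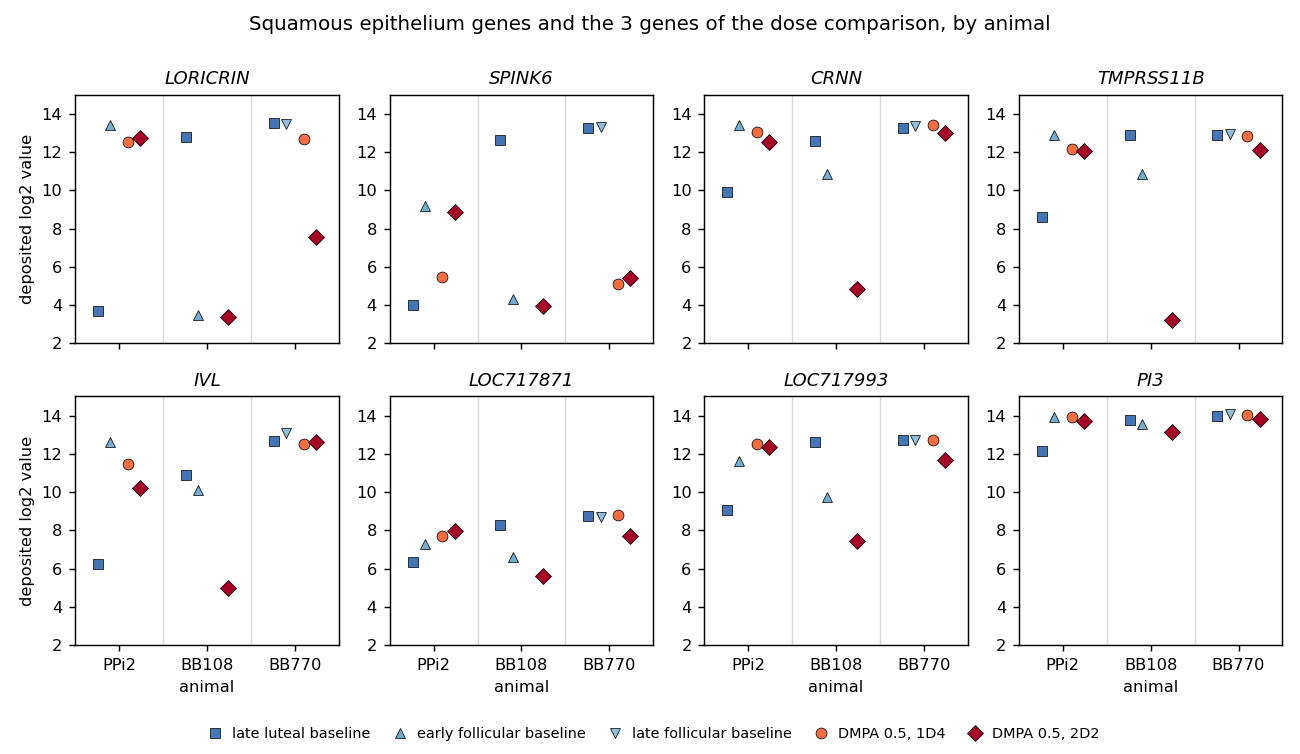
Deposited log2 values (vertical axis) of 5 squamous epithelium genes and of the 3 genes with the smallest p in the comparison of doses, in each of the 11 arrays by animal (horizontal axis); each point is 1 array. The 2D2 array of BB108 is low for CRNN (4.85), TMPRSS11B (3.20) and IVL (4.96), and the late luteal baseline of PPi2 is low for LORICRIN (3.71).

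Desmosome, gap junction and interleukin 1 family genes lay below the median of all genes, which was 0.02. The 16 tight and adherens junction genes did not, with a median of 0.03 and 4 higher and 1 lower in 3 of 3 animals. Without the late luteal array of PPi2 their median was -0.01, against 0.04 over all genes. Over all genes 17.2% were higher and 11.5% lower in 3 of 3 animals. The 13 desmosome and gap junction genes had a median of -0.27, with 3 lower and 0 higher in 3 of 3 animals. With the late luteal array of PPi2 left out the median was -0.59 and 9 of 13 were lower in 3 of 3, where 13.9% of all genes were. The desmosomal cadherin gene DSC1 had -1.37 ± 0.88 and the plakophilin gene PKP3 -0.54 ± 0.44. The 14 genes of the interleukin 1 family had a median of -0.20, with 2 lower in 3 of 3 animals, or -0.28 and 5 without that array; the epithelial cytokine gene IL36B had -1.68 ± 1.16. None of these passed.

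Hormone-related, interferon and glycogen genes had medians between -0.12 and 0.07. Their counts in 3 of 3 animals stand beside 17.2% higher and 11.5% lower over all genes. Of the 29 measured interferon and restriction genes 2 were higher and 3 lower in 3 of 3 animals, with a median of -0.12; ISG15 had -0.77 ± 0.61. Of the 26 progestin and glucocorticoid genes 1 was higher and 3 were lower in 3 of 3, with a median of -0.01, and of the 23 estrogen-responsive genes 1 was higher and 3 lower, with a median of 0.03. The insulin receptor substrate gene IRS1 had the smallest p of the latter list, with -0.87 ± 0.34. The estrogen receptor gene ESR1 had -0.22 ± 0.23 and the progesterone receptor gene PGR -0.21 ± 0.42. Of the 11 glycogen genes 3 were higher in 3 of 3 and 0 were lower.

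Immune cell lists differed among themselves and among animals. The mean change of the 5 Langerhans cell genes was 0.51 in PPi2, 0.65 in BB108 and 0.60 in BB770, with a median over genes of 0.28. Its 2 members higher in 3 of 3 animals, FCGBP and EPCAM, are also made by columnar epithelium. The B and plasma cell genes had mean changes of -0.61, 1.25 and 0.57 in the same order of animals, and the 4 neutrophil genes 0.33, -0.85 and 0.99, so neither list moved one way in the 3 animals. Over all genes 17.2% were higher and 11.5% lower in 3 of 3 animals. Of the 12 measured T cell genes 5 (41.7%) were higher and 0 lower in 3 of 3 animals, with a median of 0.15. Their mean change was -0.07 in PPi2, 0.66 in BB108 and 0.28 in BB770. The inhibitory receptor gene CTLA4 had 0.70 ± 0.34. Of the 18 genes of HIV receptors and homing, 5 (27.8%) were higher and 1 (5.56%) was lower in 3 of 3 animals. The mean change of that list was -0.13, 0.33 and 0.24 in the same order, so PPi2 differed in sign from the others in both lists. The HIV co-receptor gene CXCR4 had 0.58 ± 0.35, the homing integrin gene ITGB7 0.44 ± 0.27, the lymph node homing receptor gene CCR7 0.52 ± 0.25 and CD4 0.07 ± 0.28. None of these passed.

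The second question was whether 2D2 differed from 1D4 in the lowest dose. No probe set passed (0 of 31624, 0%), and 1163 (3.68%) had an unadjusted p under 0.05. Smallest in p were CCN5, a matricellular protein gene, with -3.23 ± 0.70, SVEP1, a matrix adhesion protein gene, with -1.04 ± 0.26, and ZNF582, a zinc finger gene, with 1.10 ± 0.28. CCN5 was 9.66 at 1D4 and 5.94 at 2D2 in PPi2, and 8.61 and 5.89 in BB770, with 6.08 in the 2D2 array of BB108. The baselines of the 3 animals spanned 5.88 to 8.37, so both 1D4 arrays lay above all of them.

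Stromal genes were higher at 1D4 than at 2D2, mostly through single biopsies. The median difference, 2D2 minus 1D4, was -1.66 over 25 extracellular matrix genes, -1.55 over 13 fibroblast genes and -2.30 over 10 smooth muscle genes, against 0.05 over all genes. The smooth muscle mean was 11.37 in the 1D4 array of PPi2 and between 6.64 and 9.27 in each of the other 10 arrays. CNN1, which encodes the smooth muscle protein calponin, was 11.05 in that array, 7.92 in the late luteal baseline of the same animal and at or below 5.20 in the arrays of the other animals. In BB770 the fibroblast mean was 11.26 at 1D4 and 8.76 at 2D2, beside baselines of 10.93 (late luteal) and 8.96 (late follicular), so its baseline arrays also differed.

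The third question was whether the lowest dose differed from the higher ones. At 2D2 the change of the 3 animals at dose 0.5 was set against the mean change of the 3 animals at 1.5 and the 3 at 2.5. One probe set of 31624 (0.00316%) passed, and 3175 (10%) had an unadjusted p under 0.05. The one that passed was LOC717871, a locus known here only by its symbol, with a difference of 4.57 ± 0.72 (SE; limma adjusted p = 0.00875). Leaving out the late luteal array of PPi2 it was 4.30 (adjusted p = 0.0324), and 1873 probe sets (5.92%) then had an unadjusted p under 0.05. Its change at 2D2 averaged -0.57 at dose 0.5 and lay between -5.97 and -3.17 in the 6 animals of the higher doses.

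The levels behind that difference were unequal before treatment. LOC717871 lay between 6.36 and 8.77 in the 6 baseline arrays of the lowest dose and between 8.55 and 12.45 in the 22 other baseline samples, with a median of 11.21. At 2D2 it was 7.99 in PPi2, 5.59 in BB108 and 7.73 in BB770, against 5.50 to 6.26 in the animals of the higher doses. With the animal left out of the model, so that levels and not changes were compared, the difference was 1.31 (limma adjusted p = 0.956). With the GAPDH difference as a covariate it was 4.12 (adjusted p = 0.181), and with 1 change per animal 4.47 (adjusted p = 0.114). With the animal as a random block it was 2.62 (adjusted p = 0.487), and the 1 probe set that passed there was PI3 (adjusted p = 0.0278). LOC717871 also missed the threshold without the 2D2 array of PPi2 (adjusted p = 0.435) or of BB770 (0.0606), and without either animal (0.258 and 0.132). The GAPDH difference itself was higher than the own baseline by 0.6 to 1.92 at 2D2 in the higher doses, against 0.59, 0.39 and -0.05 in PPi2, BB108 and BB770.

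Squamous genes had large differences between the doses at 2D2, though none of the list members passed. The difference was higher at dose 0.5 in 15 of 15 cornified envelope genes (median 3.73), 18 of 18 epithelial proteases (2.17), 14 of 14 protease inhibitors (3.04) and 18 of 18 suprabasal squamous genes (2.10), against 5711 of 11199 genes and a median of 0.01. Of these, 13, 11, 9 and 12 had an unadjusted p under 0.05, where 7.3% of all genes did in that direction. With the late luteal array of PPi2 left out the medians were 3.04, 1.70, 2.09 and 1.68, and 12, 10, 7 and 10 genes had an unadjusted p under 0.05, against 4.83% of all genes. Over all probe sets the count with an unadjusted p under 0.05 went from 3175 to 898 with the GAPDH difference as a covariate. It was 1184 without BB770, 2818 without PPi2 and 3401 without BB108. The squamous lists were not counted under these 4 settings, so how far their differences rest on RNA quality or on BB770 was not tested. The elafin gene PI3, an elastase inhibitor, had 3.49 ± 0.68 (limma adjusted p = 0.135): its 2D2 values were 13.71, 13.14 and 13.84 at dose 0.5, against 9.04 to 12.49 at the higher doses, so the doses did not overlap. LOC717993 had 4.66 ± 0.92 (limma adjusted p = 0.135), with 12.37, 7.43 and 11.70 at dose 0.5 against 6.25 to 7.12, also without overlap, though BB108 at 7.43 lay close. Both genes were named for their small p in this same comparison, so the lack of overlap is not separate evidence. How many of all genes lacked overlap between the doses was not counted. CRNN had 6.55 ± 1.51 and TMPRSS11B 7.00 ± 1.80, both with BB108 inside the range of the higher doses (3.62 to 5.50 and 2.44 to 3.27).

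The animals of the lowest dose also differed in degree. The cornified envelope mean change at 2D2 was 0.56 in PPi2, -3.15 in BB108 and -1.53 in BB770, against -5.54 to -4.41 in the 6 animals of the higher doses. Against the early follicular baseline alone, without the late luteal array, the value of PPi2 was -1.48, so its sign rests on that array. In BB108 the cornified envelope mean was 11.59 in the late luteal and 9.49 in the early follicular baseline, so its change also depends on the baseline used. At 2D2 the mean of the 65 squamous genes was 10.81 in PPi2, 8.06 in BB108 and 10.92 in BB770. The higher doses had 7.54 to 8.41, so the treated level of BB108 lay inside their range. The mean change of the columnar epithelium genes was 0.28, 0.94 and 1.35, within or near the 0.40 to 2.26 of the higher doses. The 9 largest rises of the arm had 1.63, 1.95 and 3.14, against 2.14 to 5.02. Without its late luteal array PPi2 had 0.81 for the columnar genes and 3.22 for the rises, both inside the ranges of the higher doses.

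**Figure D4:**
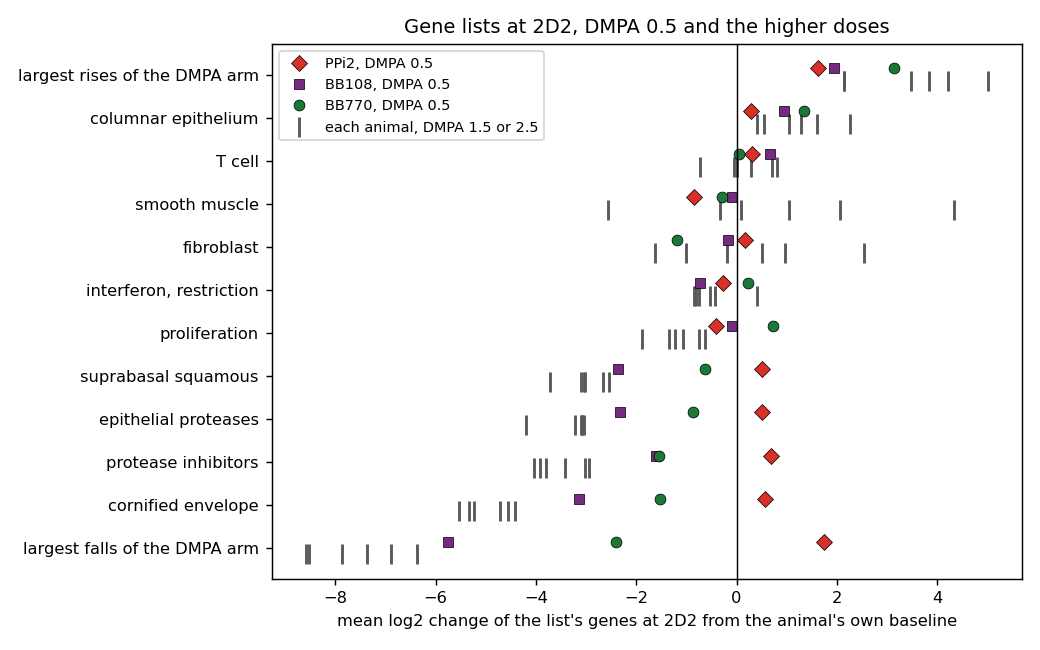
Mean log2 change of each list's genes at 2D2 from the animal's own baseline (horizontal axis) for 12 gene lists (vertical axis); coloured symbols are the 3 animals at dose 0.5 and grey ticks the 6 animals at dose 1.5 or 2.5. For the cornified envelope the lowest dose spans -3.15 to 0.56 (PPi2, whose value is -1.48 without its late luteal baseline array) and the higher doses -5.54 to -4.41, while for the columnar epithelium the ranges overlap.

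Cell division genes had a median change of 0.19 at the lowest dose with both times combined. Of the 21 genes 5 (23.8%) were higher and 0 lower in 3 of 3 animals, against 17.2% and 11.5% of all genes. Without the late luteal array of PPi2 the median was 0.01, 0 of 21 were higher in 3 of 3, and the mean change of that animal went from 0.04 to -0.79. Of the 21 measured proliferation genes, 21 had a higher change at 2D2 at dose 0.5 than at the higher doses, with a median difference of 1.08. In that direction 18 had an unadjusted p under 0.05, as did 7.3% of all genes, but 0 passed. The mean change of the list was -0.40 in PPi2, -0.08 in BB108 and 0.73 in BB770, against -1.89 to -0.62 at the higher doses. Without the late luteal array PPi2 had -1.23, inside the range of the higher doses. The mitotic kinase gene CDK1 had a difference of 2.00 ± 0.53, the mitotic cyclin gene CCNB1 1.86 ± 0.57 and the proliferation marker gene MKI67 1.81 ± 0.66. MKI67 at 2D2 was 6.38 in PPi2, 7.43 in BB108 and 8.86 in BB770, against 5.42 to 7.14 at the higher doses, and its baselines in the 3 animals were 5.46 to 8.43. Leaving out the late luteal array of PPi2 gave a median difference of 0.96, with 13 of 21 at an unadjusted p under 0.05, against 4.83% of all genes. This list was also not counted with the GAPDH difference as a covariate or without single animals.

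With both times combined the contrast of doses gave more calls, but these rested on single arrays. It gave 548 passing probe sets of 31624 (1.73%), 412 higher (1.3%) and 136 lower (0.43%) at dose 0.5. Among the genes that passed in the higher direction (1.97% of all) were 11 of 15 cornified envelope and 8 of 21 proliferation genes. Without the late luteal baseline array of PPi2 2 probe sets (0.00632%) passed, without its 1D4 array 2, without that animal altogether 0 and without BB770 1. Without the late luteal baseline array of BB770 23 passed, and without its 1D4 array 64. Without the early follicular baseline array of PPi2, which leaves the late luteal array as that animal's only baseline, 2292 passed. No count of genes from this contrast is therefore given as a result of the dose.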

How the data were processed

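Total RNA of vaginal pinch biopsies was amplified, labelled with biotin and hybridized to Affymetrix rhesus macaque arrays. The values are log2 values as the authors deposited them, 1 column per array, between 1.37 and 14.57; affy and Partek are named in the submitters' processing notes without versions, and the normalization step is not given in the sources here. Of 52865 probe sets, 158 controls were left out, as were probe sets whose mean fell below the 40th percentile (log2 5.53). Symbols came from the platform annotation: 24969 probe sets had 1, 361 several and 27535 none, and no position or sequence is used here.

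limma 3.58.1 in R 4.3.3 (statmod 1.5.0) was fitted to 57 samples (the labelled duplicate array, of another animal, was merged by averaging), with a fixed effect of animal as the block and a term per dose, or per dose and time, and Benjamini-Hochberg adjustment over all 31624 probe sets. The pairing is by animal, from the labels; the replicate numbers of the titles do not pair samples. Nothing in the labels says that biopsies of 1 animal were independent, and each animal had 1 array per phase or time.

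Members and the 35 gene lists (461 genes measured) were chosen with earlier results of these data known. Named genes were the 10 of each direction with the smallest p that had the same direction in 3 of 3 animals, the 3 with the smallest p for dose and time, and up to 3 per list; genes named for 2-fold changes or no overlap, and further list members, were chosen after their values were seen. The scripts were tested on simulated data. Alternatives are given at the end.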

Additional observations from a re-analysis of the deposited data

Results flagged for a closer look

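LOC717871 differed between the doses at 2D2 by the test of the difference itself, with a change 4.57 higher on the log2 scale at dose 0.5 than at doses 1.5 and 2.5. Its baseline levels at dose 0.5 were already low, as given above, and the difference was 1.31 with the animal left out of the model. It missed the threshold with the GAPDH covariate, with 1 change per animal and without PPi2 or BB770. CCNA2, the cyclin A2 gene, was higher than the own baseline in the 3 animals of dose 0.5 at 2D2, by 0.25 on average, and lower in each of the 6 animals of the higher doses. This opposite direction was seen first and then read from the fit, where the difference of 0.88 ± 0.27 had a limma adjusted p of 0.32. It was read with the late luteal baseline array of PPi2 included. Without that array 0 of the 21 cell division genes were higher in 3 of 3 animals with both times combined. The mean change of their list in PPi2 at 2D2 was then -1.23.

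Among 16 comparisons of a sample with the other baseline samples of its phase, 3 stood far from the rest, where chance flags about 1 in 20 groups. The actin 3' minus 5' difference was 1.68 in early follicular sample 10. The mean of fibroblast and smooth muscle genes was 8.95 in late follicular sample 3. The GAPDH 3' minus 5' difference was 1.92 in late follicular sample 1. None of these 3 samples belongs to the animals of the lowest dose.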

How the results depend on the processing

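The comparisons of the lowest dose with its own baseline gave 0 passing probe sets in each alternative, both times together and at 2D2; at 1D4 the count was 0 to 1 when single arrays or animals were left out. Of 135 genes named for both times together, 89 kept their sign in each alternative and 0 passed in any. For 2D2 minus 1D4, 0 became 1 with the animal as a random block, 9 with array weights and 0 to 2 without single arrays or animals. For the dose difference at 2D2, the count of 1 was kept with the animal as a random block, but the probe set was then PI3 and not LOC717871. It became 2 with no filter, 0 with no replicate block, with 1 change per animal or with the GAPDH covariate, 50 with array weights and 0 to 93 without single arrays or animals; with both times together it was 548. After the data were seen, both times together were also run with 1 change per animal, which gave 249, and without single arrays or animals, which gave 0 to 2292: leaving out an array of PPi2 gave 2 (late luteal), 2292 (early follicular), 2 (1D4) and 655 (2D2), of BB108 375 (late luteal), 846 (early follicular) and 843 (2D2), and of BB770 23 (late luteal), 178 (late follicular), 64 (1D4) and 155 (2D2); leaving out the animal gave 0, 825 and 1 in that order. Centring moved the median of all probe sets from 0.006 to 0.04. The cause was not tested. The GAPDH change ranged from -0.059 to 0.335 and the actin change from -0.052 to 0.092 without single arrays or animals.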

Other observations

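Genes of B cells and lymphoid tissue separated the biopsies of BB108 from one another, before and after treatment. CXCL13, the chemokine that draws B cells into follicles, stood at 11.33 in the early follicular baseline, 5.50 in the late luteal baseline and 11.15 at 2D2, while the 22 baseline samples of other animals lay between 4.42 and 7.58. The B cell surface gene MS4A1 had 9.01, 5.85 and 9.72 in the same arrays, BANK1 had 8.91, 6.37 and 9.20, and CCR7 had 9.35, 7.72 and 9.42. In BB770 CXCL13 was 5.43 and 5.18 at baseline, 9.33 at 1D4 and 5.27 at 2D2. These genes were chosen after their values were seen.

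The hemoglobin gene HBB was lower at 2D2 at dose 0.5 relative to the higher doses, with a difference of -2.59 ± 0.94 (limma adjusted p = 0.369). In BB770 it was 12.39 and 10.24 at baseline, 10.93 at 1D4 and 8.18 at 2D2.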
